A study of Mus musculus with 4 samples.

Results

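The endogenous opioid system of the injured mouse spinal cord was described through 7 genes, the 4 receptor genes Oprm1, Oprd1, Oprk1 and Oprl1 and the 3 peptide precursor genes Penk, Pdyn and Pnoc. The members were the probes that carry exactly these gene names on the array, all probes of each gene, which gave 12 probes out of the 39429 and 7 genes out of 30222 gene names. Levels were the deposited normalized intensities in arbitrary units, and a probe was called well above background by the flag of the scanner software. Of the 12 probes, 9 were well above background on all 4 arrays, 2 on some of them and 1 on none, and the brightest probe of all 7 genes was well above background everywhere.

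RNA came from lumbar spinal slices of male ICR mice, an outbred stock, 7 days after partial sciatic nerve ligation (PSL) of the right hind limb, an injury given to every mouse, so that no group was uninjured. Before the ligation the ADX-PSL mice had lost their adrenal glands, the source of the daily glucocorticoid rhythm, and were kept on saline, whereas in the sham-PSL mice the glands had been exposed and left in place. Each operation was sampled at zeitgeber time (ZT) 10, near the daily glucocorticoid peak of mice with adrenals, and at ZT22, when it has declined. In what follows a time ratio is the level at ZT10 over that at ZT22 within an operation, and an operation ratio the level in ADX-PSL over that in sham-PSL at one time, both mostly given as log2. The design made 4 conditions, sham-PSL ZT10, sham-PSL ZT22, ADX-PSL ZT10 and ADX-PSL ZT22, with 1 array each and no replicate, all on 1 slide. The number of mice behind an array and the side of the cord are not given in the sources used here.

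Opioid receptors are G-protein-coupled receptors that quieten neurons: through inhibitory G proteins they lower adenylyl cyclase activity, open inwardly rectifying potassium channels and close presynaptic calcium channels. Oprm1, Oprd1 and Oprk1 encode the mu, delta and kappa receptors, and Oprl1 the nociceptin receptor. Penk encodes the precursor of the enkephalins, Pdyn that of the dynorphins and Pnoc that of nociceptin. Dorsal horn interneurons of the spinal cord make enkephalin and dynorphin, the receptors sit on primary afferent terminals and on local neurons, and this circuit is a main site at which opioids relieve pain.

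The probes are 60 bases long, and for some genes the position or sequence of the probe bears on how its level can be read, so these sequences are shown first. The brightest Oprm1 probe, A_55_P2025443, is given by its bases 31 to 60, with its CA run in capitals; that run covers bases 21 to 47, 27 bases in all, and the lower-case bases after it are a GA repeat that goes on to the end of the probe. The Oprm1 probe A_51_P100309, which is printed 10 times on each array, is given whole. The weaker Pdyn probe, A_66_P123898, is also given whole, with the codons for the 5 residues of the Leu-enkephalin core, shared by the opioid peptides of this precursor, in capitals. Penk and the brightest Oprl1 probe are given by bases 31 to 60 with the polyadenylation hexamer in capitals, since both lie at the far 3′ end of their transcripts.
Oprm1 A_55_P2025443: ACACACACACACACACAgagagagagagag
Oprm1 A_51_P100309: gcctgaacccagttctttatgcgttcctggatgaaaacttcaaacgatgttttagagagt
Pdyn A_66_P123898: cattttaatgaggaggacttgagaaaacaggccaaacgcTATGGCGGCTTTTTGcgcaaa
Penk A_55_P2035946: atctctcctgacgaaacatcAATAAAtgct
Oprl1 A_55_P2066593: ggagttctcatAATAAAcacttaccagtga

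The Oprm1 repeat probe read as one of the brightest features of the array, but so did nearly every other probe with such a run, whatever its gene. Of all probes, 22 hold a CA run of 20 bases or more, and all 22 were well above background on all 4 arrays, against 63.4% of all probes. Their median level was 41265, with a range of 2404 to 84117, and the Oprm1 probe lay at 41626. A mean level over 10000 was reached by 90.9% of these probes and by 5.91% of all probes. The same level was therefore seen on repeat probes named for unrelated genes, such as Tacr2, a tachykinin receptor, at 41747 and Lhx6, a forebrain interneuron transcription factor, at 27333. How much of the signal of the repeat probe comes from Oprm1 RNA was not tested, and Oprm1 is described below probe by probe.

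**Figure D1:**
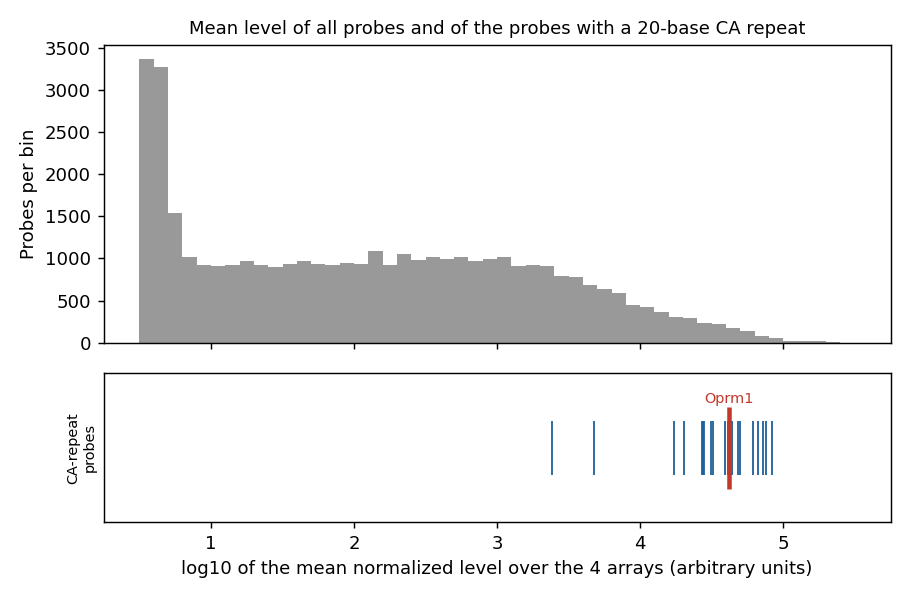
Mean normalized level over the 4 arrays (log10, arbitrary units) of all 39429 probes (upper panel, probes per bin) and of each of the 22 probes with a CA run of 20 bases or more (lower panel, 1 line a probe, Oprm1 in red). The repeat probes lie between 2404 and 84117 with a median of 41265, and the Oprm1 probe lies at 41626 among them.

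On the 4 arrays 0 probes were saturated, and the share of probes well above background was somewhat higher at ZT10 than at ZT22. It was 68.7% on sham-PSL ZT10 and 70.1% on ADX-PSL ZT10, against 66.9% on sham-PSL ZT22 and 65.1% on ADX-PSL ZT22. Because each condition is 1 array, a ratio between 2 arrays carries only the spot error, the measurement error of the spots that the scanner software gives, which leaves out the spread between mice. A gene was called by the limits of the study's methods, a ratio of at least 2 with a Z-score of at least 2 among the log2 ratios of all probes, or at most 0.5 and -2, and well above background on the brighter array. By this rule 2.96% of probes were called by their time ratio in sham-PSL, 2.63% by that in ADX-PSL, 3.25% by the operation ratio at ZT10 and 2.49% by that at ZT22. The brightest probe of no member was called in any of the 4 comparisons, 0 of 7 each time, and 1 of the 12 probes was called once, the weak Oprm1 probe described below. The Z limit corresponded to ratios of 2.18 to 2.32, so a change smaller than about this size would not have been called.

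**Figure D2:**
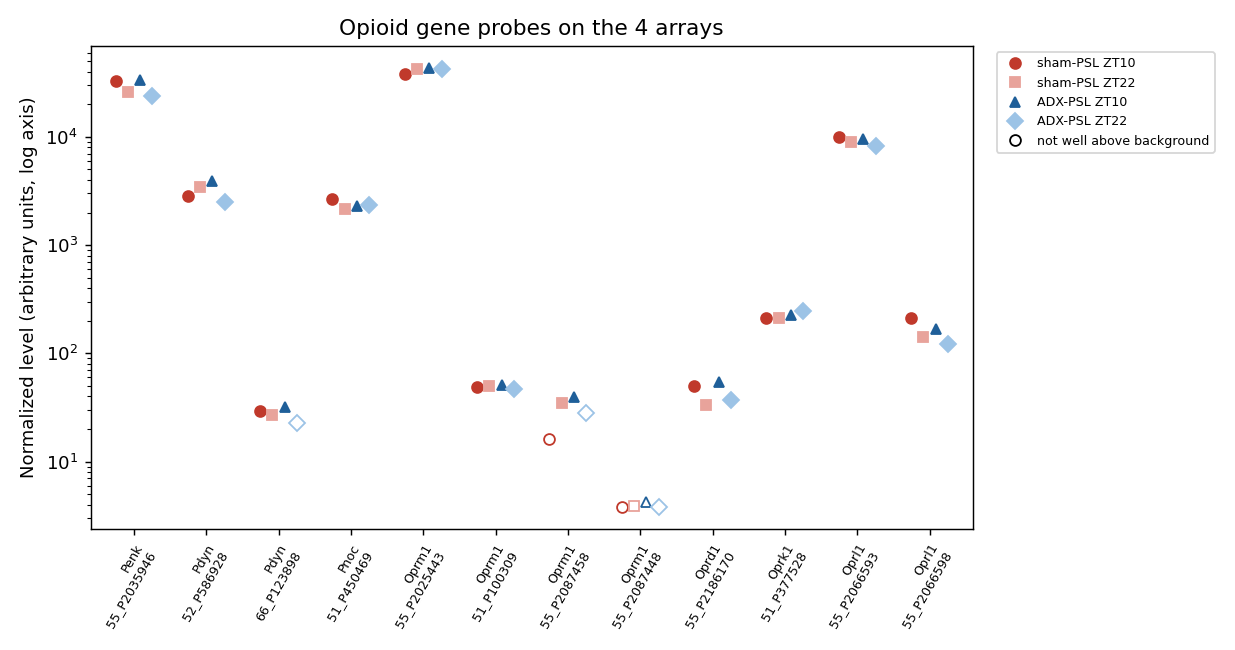
Normalized level (arbitrary units, log axis) of all 12 opioid gene probes on the 4 arrays, 1 symbol an array, open where not well above background; levels of different probes are not comparable. The 4 symbols of a probe lie close together for most probes, and Penk spans 23791 to 33326.

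Penk, the enkephalin precursor, was the only precursor higher at ZT10 than at ZT22 by more than the spot error under both operations. Its probe (chr4:4060724-4060783, mm9, minus strand) read 33027 on sham-PSL ZT10, 26166 on sham-PSL ZT22, 33326 on ADX-PSL ZT10 and 23791 on ADX-PSL ZT22. Both ZT10 arrays were thus above both ZT22 arrays, and the operations did not separate. The ZT10 level was 1.26 times the ZT22 level in sham-PSL, a log2 ratio of 0.34 ± 0.20 (spot error), and 1.40 times in ADX-PSL, a log2 ratio of 0.49 ± 0.20. Between operations the log2 ratio of ADX-PSL to sham-PSL was 0.013 at ZT10 and -0.14 at ZT22, both within the spot error of 0.20.

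Pdyn, the dynorphin precursor, had the opposite order of times under the 2 operations. Its brightest probe (chr2:129512323-129512382, minus strand) read 2872 on sham-PSL ZT10, 3428 on sham-PSL ZT22, 3875 on ADX-PSL ZT10 and 2503 on ADX-PSL ZT22. The highest and the lowest array were both ADX-PSL, with the sham-PSL arrays between them. The log2 time ratio was -0.26 ± 0.20 for sham-PSL and 0.63 ± 0.20 for ADX-PSL, where the level at ZT10 was 1.55 times that at ZT22. Adrenalectomized mice therefore read 1.35 times the sham-PSL level at ZT10, a log2 ratio of 0.43, and 0.730 times at ZT22, a log2 ratio of -0.45.

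The difference between the time ratios of Pdyn, sham-PSL minus ADX-PSL, was -0.89 with a spot error of 0.29 on the log2 scale. Across 25009 probes measured on every array the median size of this difference was 0.205 and the 90th percentile 0.584. With 1 array a condition this difference has no test. The weaker Pdyn probe, which lies in the coding sequence (chr2:129513968-129514027), read 29.2, 27.0, 31.6 and 22.7 in the same order of arrays, the last not well above background. In ADX-PSL its ZT10 reading was 1.39 times that at ZT22, a log2 ratio of 0.48 ± 0.42. Its log2 time ratio in sham-PSL, 0.11 ± 0.36, was within the spot error and of the other sign from that of the brightest probe.

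Pnoc, the nociceptin precursor, differed between times in sham-PSL by more than the spot error and in ADX-PSL by less. Its probe (chr14:66020505-66020564, minus strand) read 2691 on sham-PSL ZT10, 2153 on sham-PSL ZT22, 2305 on ADX-PSL ZT10 and 2336 on ADX-PSL ZT22. The sham-PSL arrays were the highest and the lowest and the ADX-PSL arrays lay between them with nearly equal levels. The log2 time ratio was 0.32 ± 0.20 for sham-PSL and -0.019 ± 0.20 for ADX-PSL. The log2 operation ratio was -0.22 at ZT10, just beyond the spot error, and at ZT22 it was 0.12, within it.

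**Figure D3:**
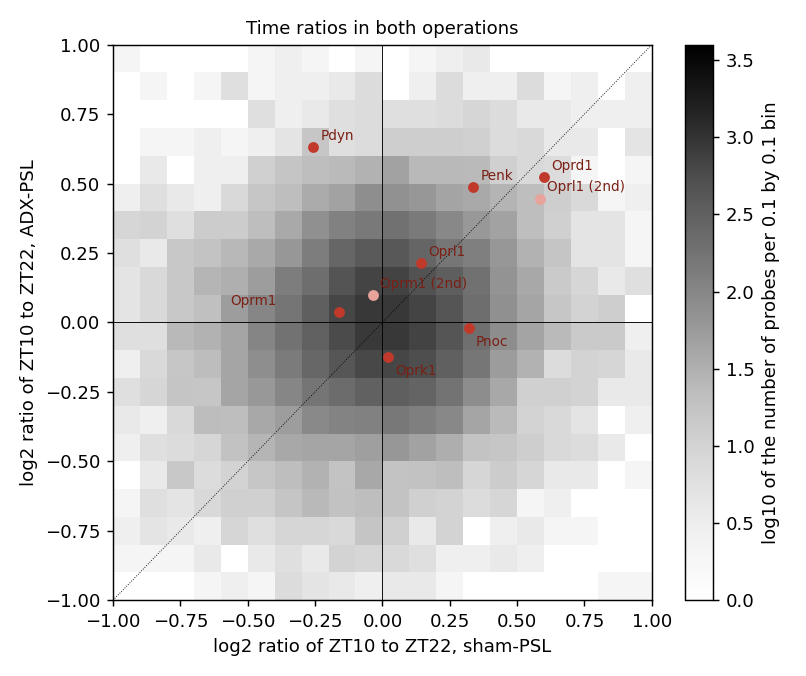
Log2 time ratio (ZT10 over ZT22) under sham-PSL (x axis) and under ADX-PSL (y axis) for the opioid gene probes well above background on all 4 arrays (dark red the brightest probe of a gene, light red a further probe) over the number of all probes per 0.1 by 0.1 bin (grey, log10). Pdyn lies at -0.26 and 0.63 in the upper left, while Penk and Oprd1 lie in the upper right near the dotted line of equal ratios; axes stop at 1 and -1.

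Among the brightest probes of the 7 genes that of Oprd1, the delta receptor gene, had the largest range of deposited log2 levels over the 4 arrays, 0.70 against 0.63 for Pdyn, an order that normexp background correction turned, with 0.42 against 0.65. Its probe (chr4:131666647-131666706, minus strand) read 50.1 on sham-PSL ZT10, 33.1 on sham-PSL ZT22, 53.8 on ADX-PSL ZT10 and 37.4 on ADX-PSL ZT22. Both ZT10 arrays were above both ZT22 arrays. The level at ZT10 was 1.52 times that at ZT22 in sham-PSL, a log2 ratio of 0.60 ± 0.28, and 1.44 times in ADX-PSL, a log2 ratio of 0.52 ± 0.29. The log2 ratios of ADX-PSL to sham-PSL, 0.10 at ZT10 and 0.18 at ZT22, were within spot errors of 0.24 and 0.32. These levels are low for this array type. The dimmest probe well above background read 14.9 on sham-PSL ZT10, 18.4 on sham-PSL ZT22, 12.8 on ADX-PSL ZT10 and 22.2 on ADX-PSL ZT22. This floor was thus higher at ZT22 under both operations, and its part in the Oprd1 time ratios was not tested. Another background correction lowered the sham-PSL log2 ratio to 0.29.

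Oprl1, the nociceptin receptor gene, gave higher levels at ZT10 on both of its probes. The brightest, at the 3′ end (chr2:181455616-181455675, plus strand), read 9952 on sham-PSL ZT10, 9022 on sham-PSL ZT22, 9651 on ADX-PSL ZT10 and 8321 on ADX-PSL ZT22. Its log2 time ratios were 0.14 for sham-PSL and 0.21 for ADX-PSL, the first within the spot error of 0.20 and the second just beyond it. The probe further upstream (chr2:181453983-181454042) read 211, 141, 167 and 123, with larger log2 time ratios, 0.58 ± 0.21 under sham-PSL and 0.45 ± 0.21 under ADX-PSL. On the upstream probe both ADX-PSL arrays were below the sham-PSL array of the same time, by log2 ratios of -0.33 at ZT10 and -0.20 at ZT22, the first beyond the spot error.

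Oprk1, the receptor of the dynorphins, was nearly flat. Its probe (chr1:5592825-5592884, plus strand) read 214 on sham-PSL ZT10, 211 on sham-PSL ZT22, 225 on ADX-PSL ZT10 and 246 on ADX-PSL ZT22. The log2 time ratios were 0.02 for sham-PSL and -0.13 for ADX-PSL, both within the spot error of 0.21. At ZT22 ADX-PSL was above sham-PSL by a log2 ratio of 0.22, just beyond the spot error, and at ZT10 by 0.074, within it.

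Oprm1, the mu receptor gene and the target of morphine, showed no difference beyond the error of a single spot on the 2 probes measured on all 4 arrays. The probe printed 10 times (chr10:3516154-3516213, mm9) read 48.8 on sham-PSL ZT10, 50.02 on sham-PSL ZT22, 50.6 on ADX-PSL ZT10 and 47.3 on ADX-PSL ZT22. The log2 time ratios were -0.035 ± 0.25 for sham-PSL and 0.099 ± 0.26 for ADX-PSL, and the log2 operation ratios were 0.053 at ZT10 and -0.081 at ZT22. Here ± is the average error of a single spot. The error of a mean of 10 spots is smaller and was not computed. Its 10 spots show the technical scatter within an array directly: the signals before normalization were 48.7 ± 6.19 (SD, n = 10 spots), 48.5 ± 4.38, 51.7 ± 4.34 and 48.7 ± 5.80. The array means thus lie within 1 SD of single spots of each other, which is a wider measure than the error of these means.

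The repeat probe of Oprm1 (chr10:3308332-3308391), 207.822 kb from the probe printed 10 times, read 38154, 42700, 43392 and 42260 in the same order of arrays. Its log2 time ratios were -0.16 for sham-PSL and 0.038 for ADX-PSL, both within the spot error of 0.20. The 2 other probes lay 35.535 and 39.332 kb from the probe printed 10 times. Of these, A_55_P2087448 read 3.8 to 4.2 and stayed at background throughout. The other, A_55_P2087458, was well above background on sham-PSL ZT22, at 35.0, and ADX-PSL ZT10, at 39.6, but not on sham-PSL ZT10, at 16.1, or ADX-PSL ZT22, at 28.2. It was called at ZT10, where the ADX-PSL reading was 2.46 times that of sham-PSL, a log2 ratio of 1.3 ± 0.48. In sham-PSL the ZT22 reading was 2.18 times that at ZT10, a log2 time ratio of -1.12 ± 0.50, without passing the Z limit. This weak probe and the probe printed 10 times thus gave different ratios under the same gene name. They are annotated to different transcripts of Oprm1, and in each ratio of the weak probe 1 array was not well above background.

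**Figure D4:**
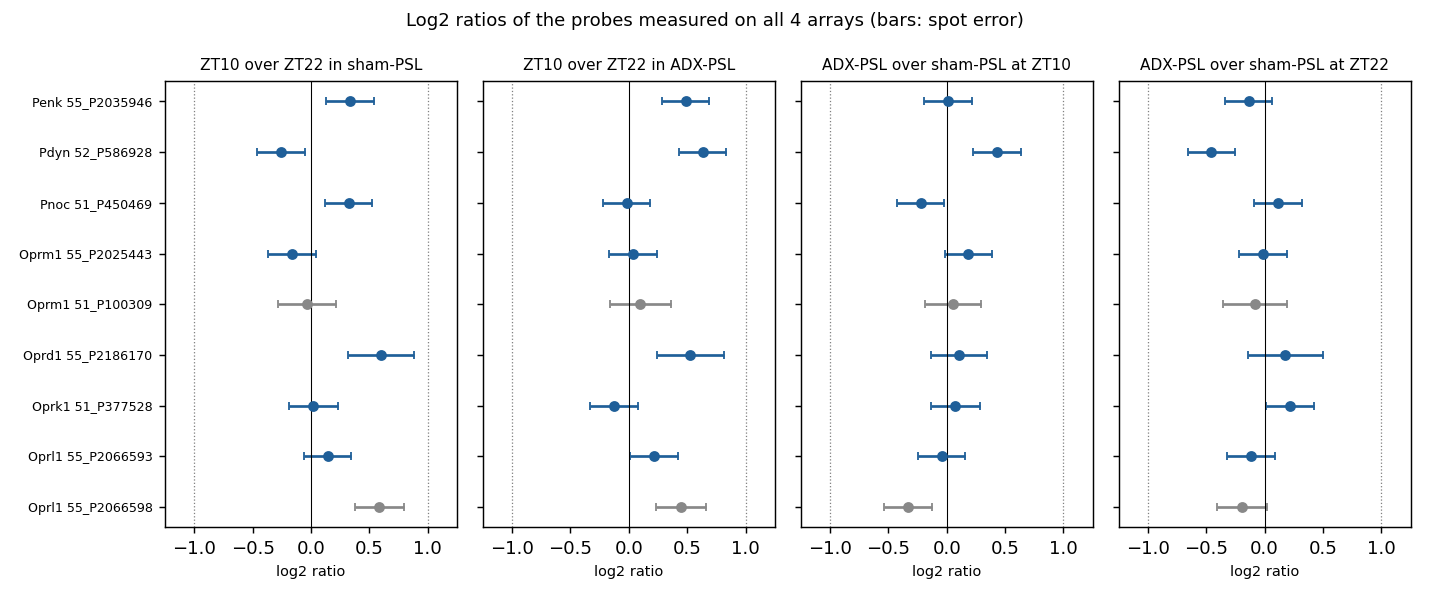
Log2 ratios of the 9 opioid gene probes well above background on all 4 arrays in the 4 comparisons (blue the brightest probe of a gene, grey a further probe); bars are the spot error and dotted lines mark log2 ratios of -1 and 1. No probe reaches a dotted line, and the largest ratio is that of Pdyn in ADX-PSL, 0.63.

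Of the 7 brightest probes 5 had a time ratio over 1 under sham-PSL and 5 under ADX-PSL, with log2 medians of 0.14 and 0.21, whereas the medians over all probes measured on both arrays were 0.0088 and 0.00065. In ADX-PSL against sham-PSL the members' medians were 0.074 at ZT10 and -0.015 at ZT22, with 5 and 3 of 7 higher, and the medians over all probes were -0.0012 and 0.011. The size of a typical ratio, the median absolute log2 ratio over all probes, was 0.141 to 0.155. The comparisons share arrays, and the medians of 7 genes have no test.

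With 1 array a condition no 2 conditions can be tested against each other. Operation and time were therefore tested in an additive fit of all 4 arrays. In this fit the disagreement between the time effects of the operations serves as the error, with 1 residual degree of freedom. The error of each probe was then drawn toward a value shared by all fitted probes (eBayes of limma). The SE and p values below thus rest in part on that shared value and not on the arrays of the probe alone. Over 28843 probes measured on at least 1 of the arrays, 0% were called for operation and 0% for time at an adjusted p under 0.05 (limma, Benjamini-Hochberg), and 6.25% and 4.92% at an unadjusted p under 0.05. Of the 11 member probes fitted, 0 were called for operation in either way, with adjusted p from 0.837 to 0.999 in limma. For time 0 passed after adjustment, and 3 probes, 27.3% of the 11, passed without it. These were Oprd1, with a log2 difference of 0.56 ± 0.12 (SE) between ZT10 and ZT22, the upstream Oprl1 probe with 0.51 ± 0.12 and Penk with 0.41 ± 0.12, each with an adjusted p of 0.932 in limma. Of these unadjusted passes that of Penk was lost under 2 other normalizations, and that of Oprd1 with an intensity trend in the error. For Pdyn the fitted time difference was 0.19 ± 0.29 and the operation difference -0.011 ± 0.29, since its opposite ratios count as error in this fit.

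Genes that make, degrade or transmit opioid signals were followed in 7 lists of 49 genes, all on the array and 47 well above background on all 4 arrays. By the additive fit 0 of 49 passed after adjustment in either term, and 2 passed without adjustment for operation and 1 for time (limma). Of all probes fitted 6.25% passed without adjustment for operation and 4.92% for time, so these few passes do not set the lists apart. Over the 47 the median log2 time ratios were 0.12 for sham-PSL and -0.01 for ADX-PSL, and the median log2 operation ratios -0.03 at ZT10 and 0.03 at ZT22. By the limits of the methods 1 gene was called in 1 comparison, the operation ratio at ZT10, by which 3.25% of all probes were called.

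Among 7 genes of precursor processing Pam, which amidates the carboxyl end of peptides, had the largest ratios. It read 2734 on sham-PSL ZT10, 1469 on sham-PSL ZT22, 2627 on ADX-PSL ZT10 and 1431 on ADX-PSL ZT22, with log2 time ratios of 0.90 under sham-PSL and 0.88 under ADX-PSL, and it was the gene that passed for time without adjustment. Pcsk1, a convertase that cleaves precursors, gave 0.41 and 0.30. In sham-PSL 6 of these 7 genes were higher at ZT10, and in ADX-PSL 4 of 7.

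Among 8 peptide-degrading enzymes, all 8 had the higher level at ZT10 in sham-PSL and 4 of 8 did in ADX-PSL, with medians of 0.22 and 0.06. Anpep, an aminopeptidase that degrades enkephalins, was the gene called: it read 399, 350, 163 and 199 in the order of arrays used above, and its log2 ratio of ADX-PSL to sham-PSL at ZT10 was -1.29 ± 0.21. Markers of meningeal fibroblasts moved the same way in that comparison, with a median log2 ratio of -1.93 and 10 of 14 called lower, and without Ptgds, whose probe alone made up most of the sum, their summed level was 21597 at ZT10 and 18256 at ZT22 in sham-PSL, against 7341 and 8005 in ADX-PSL. With Ptgds the sums were 97416, 124851, 82760 and 65587. Of those 14 markers Dpep1 was at background on all arrays, and the part of the meninges in the Anpep ratio was not tested. Ece1, an endothelin-converting enzyme singled out after its values were seen, read 219 on sham-PSL ZT10 and 106 to 117 on the other 3 arrays, a log2 ratio of 1.01 in sham-PSL that did not pass the Z limit.

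The receptors' downstream genes gave small ratios. Among 9 inhibitory G protein and adenylyl cyclase genes the largest were Gnai2, with -0.46 for ZT10 against ZT22 in sham-PSL, and Adcy8, with 0.40 for ADX-PSL against sham-PSL at ZT10. Among 6 effector channel genes they were the potassium channel genes Kcnj5, with 0.46 ± 0.32 for ADX-PSL against sham-PSL at ZT10, and Kcnj9, with 0.41 for the times in ADX-PSL. Among 11 desensitisation genes Rgs4, which speeds the shut-off of inhibitory G proteins, read 3401 at ZT10 and 3476 at ZT22 under sham-PSL, against 2516 and 2137 under ADX-PSL. Both ADX-PSL arrays were below both sham-PSL arrays, by log2 ratios of -0.43 at ZT10 and -0.70 at ZT22, and Rgs4 passed for operation without adjustment, as Anpep did.

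Rgs9, of the same family, gave 0.48 for the times in sham-PSL and -0.33 in ADX-PSL. Of 5 transcription factors Rest, a repressor of neuronal genes, gave -0.61 for ZT10 against ZT22 in sham-PSL and 0.30 in ADX-PSL. Creb1 gave 0.46 in ADX-PSL. Of the 3 other opioid-related genes the largest ratios were 0.23 for Ogfrl1 and -0.16 for Pomc, the endorphin precursor gene, which read 457 to 550.

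The labelled tissue was checked against markers of its cells. Markers of all neurons (11 of 11), oligodendrocytes (8 of 8), astrocytes (8 of 8) and motor neurons (6 of 6) were well above background on all arrays, as were 11 of 13 dorsal horn markers, with Prrxl1 at background throughout. Of the 6 sensory ganglion markers reported here Scn10a and Mrgprd were at background on all arrays, Trpv1 was well above it on 1 array, and Scn11a, P2rx3 and Calca on all 4, Calca at 14945 to 22426. Dorsal horn markers had median log2 time ratios of 0.19 for sham-PSL and 0.06 for ADX-PSL and all-neuron markers of 0.12 and 0.13, beside the members' 0.14 and 0.21. The summed level of the dorsal horn markers ran from 74262 to 86659 and that of the neuron markers from 409451 to 474101, highest on sham-PSL ZT10 for both; without Snap25, whose only probe holds a CA run, the neuron sum ran from 346324 to 414038 and the median ratios were 0.13 and 0.14. In bulk RNA fewer cells of a type and less RNA per cell cannot be told apart, and the part of cell content in the members' ratios was not tested.

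Red blood cell markers stood apart on 1 array: their summed level was 18767 on sham-PSL ZT22 against 89810 to 135912 on the other 3, and all 6 were called higher at ZT10 in sham-PSL. Microglial markers had median log2 time ratios of -0.48 under sham-PSL and -0.38 under ADX-PSL, with 0 of 8 higher at ZT10 in either, the opposite sign to the members' medians. Schwann cell and nerve root markers had medians of 0.25 and 0.07, with Pmp2 at background on all arrays.

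The genes most like Oprd1 over the 4 arrays were found by the Euclidean distance of log2 levels, each centred on its mean, among 25008 probes. The nearest were Fam48a (now Supt20), March11, Fn3k, Cartpt and Smox, at distances of 0.041 to 0.079, and 96 probes lay within 0.2. With 4 arrays such likeness is a description of 1 order of levels, high at ZT10 and low at ZT22 under both operations.

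The Oprd1 promoter is shown because its window alone held a motif that was searched for. It is given from 120 bases to 1 base before the transcription start (RefSeq, GRCm38.p6, chr4:132144487-132144606, minus strand). The clock E-box CACGTG, whose first base is at -86, is in capitals.
Oprd1 promoter: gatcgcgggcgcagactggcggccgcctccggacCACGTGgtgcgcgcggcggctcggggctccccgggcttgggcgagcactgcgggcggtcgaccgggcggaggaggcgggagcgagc
Promoter windows from 250 bases before to 50 after the start were given for 4 of the 7 genes, 9 windows in all (3 of Oprm1, 1 of Oprd1, 3 of Oprl1 and 2 of Pdyn). The E-box was in the Oprd1 window alone, and 7.15% of the 32851 windows hold it. Oprl1, which also read higher at ZT10 under both operations, had no E-box in its 3 windows. Penk, which did so too, had no window. A link between this motif and the time ratios was not tested. The cyclic AMP response element TGACGTCA, in 1.79% of all windows, and the full palindromic glucocorticoid response element, in 3 of all windows, were in none of the 9. Motifs this rare would be missing from 9 windows of almost any genes, so their absence tells nothing about these. Sites more than 250 bases before the start were not searched. All 3 motifs were searched on both strands, do not overlap each other in these letters, and a match is a description of the sequence.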

How the data were processed

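Total RNA was labelled in 1 colour and hybridised to Agilent 44K mouse arrays, 1 array a condition. The authors extracted signals with Agilent Feature Extraction (9.5.1.1 in the labels, 10.7.1.1 in the file headers), and the deposited intensity values are linear and quantile normalized, since the 4 columns hold the same sorted values. Coordinates are mm9, per the file headers.

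Ratios were taken on the log2 scale of the deposited intensity, and spot errors from the processed signal error of the scanner files, which cover the measurement of a spot alone, and precision is limited by having 1 array a condition. The brightest probe stood for a gene, all probes of the 7 genes were named, and in each pathway list the genes past the limits or else the 2 with the largest ratio. For list genes probes with a dinucleotide run of 20 bases or more were passed over where another probe existed, a choice made after seeing the data that changed 2 of 137 genes (Rgs20 and Itgam) and left 1 (Snap25) on such a probe. Tests used limma 3.58.1 in R 4.3.3, tested on simulated data; tables used Python 3.11.15 with pandas 2.3.3. Alternatives covered normalization, background correction, filters, limits, probe choice and leaving out an array. The members and lists were chosen with earlier results of these data known.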

Additional observations from a re-analysis of the deposited data

Results flagged for a closer look

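For 4 members the log2 ratios of ZT10 to ZT22 had opposite signs under the operations, in the single array pair of each. The share of all probes with opposite signs was not counted, and the differences between operations were not tested. In ADX-PSL the ratio was -0.019 for Pnoc, 0.038 for Oprm1 and -0.13 for Oprk1, all within the spot error. In sham-PSL so were -0.16 for Oprm1 and 0.02 for Oprk1. The latter was -0.007 with the 75th percentile shift and -0.011 under normexp background correction, the sign it had in ADX-PSL. Sham-PSL minus ADX-PSL, the difference was -0.89 for Pdyn, 0.34 for Pnoc, -0.20 for Oprm1 on its repeat probe and 0.15 for Oprk1. The spot error of such a difference was 0.29 for each of them, so those of Oprm1 and Oprk1 are within it. Over all 25009 probes the median size of the difference was 0.205 and the 90th percentile 0.584. The difference of Pdyn exceeded both in size, and that of Pnoc lay between them.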

How the results depend on the processing

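Of 124 member log2 ratios recomputed under 5 other normalizations or probe choices, 122 moved by less than the spot error and 3 changed sign, to between -0.011 and 0.004 (Oprk1 time ratio in sham-PSL, Oprm1 operation ratio at ZT22). With the Oprm1 probe printed 10 times in place of the brightest, a choice made after seeing the data, the count of called members stayed at 0 in all 4 comparisons. The exceptions in size were Oprd1 in sham-PSL under normexp background correction, 0.29, and Oprl1 in sham-PSL as the mean over its probes, 0.36. Of 42 fitted values under 3 other normalizations 41 moved by less than their error, and the Oprd1 time difference under normexp was 0.32; the filters, the trend and the fit of 1 factor cannot change a fitted difference. The 3 unadjusted passes for time became 2 with quantile normalization of the raw signal (Penk lost), with the 75th percentile shift (Penk lost) and with an intensity trend (Oprd1 lost). When a ratio of 1.5 alone was asked for, 1 member was called between the times in sham-PSL (Oprd1) and 1 in ADX-PSL (Pdyn), in place of 0. Of all probes well above background on both arrays, 6.16% had a larger absolute log2 ratio than Oprd1 in sham-PSL. For Pdyn in ADX-PSL this share was 4.43%. Adjusted calls over all probes, 0 as reported, were 10 for operation and 9 for time under normexp, 13 and 11 with probes well above background on all arrays, 39 and 14 with an intensity trend, and 6 for operation fitted alone (limma); no member was among them. Leaving out 1 array leaves single ratios without a test: the Pdyn operation difference then ran from -0.45 to 0.43 and its time difference from -0.26 to 0.63, and those of Pnoc from -0.22 to 0.12 and -0.019 to 0.32. No paired analysis was possible because each condition is 1 array, with no replicates to pair. The additive fit itself compares the operations within each time and the times within each operation. Levels near the lowest probes well above background, those of Oprd1, Oprm1 and the second Pdyn probe, have the largest spot errors.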
